A study of Mus musculus with 8 samples.

Results

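Adam8, Adam19, Adamtsl4 and Timp2 are 4 genes of extracellular proteolysis that the authors' deposited table lists as changed between CD38high and CD38low CD11b+Gr1+ splenocytes of tumor-bearing mice. They are 4 of the 482 genes named in that table, each with 1 probeset, and 4 of the 23332 probesets measured. They were taken by symbol from that table. The table was itself chosen on the CD38high against CD38low contrast of these arrays, so their difference between the fractions is described here without a test.

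RNA was measured on 8 single-colour Affymetrix arrays, 4 of CD38high and 4 of CD38low cells, both sorted from spleens of 12-month-old L2-Cre;p120f/f mice of mixed C57BL/6x129 background that carried esophageal tumors. CD11b and Gr1 together mark the population called myeloid-derived suppressor cells in the mouse, and CD38 is an NAD-consuming ectoenzyme. In this line the L2 promoter, a viral promoter active in squamous epithelium of the mouth and esophagus, drives Cre, which deletes the floxed gene for p120-catenin there. All 8 arrays share this genotype and the tumors, so no array shows these genes in tumor-free animals or without the deletion. Each fraction was represented by mice 1, 2 and 3 and by a pool of splenocytes from 3 mice, and whether these were other mice is not said in the labels. Both fractions of one spleen preparation are called a pair. Array medians lay between 6.92 and 7.10 on the log2 scale, and the number of arrays limits the precision. The Cd38 transcript averaged 12.45 ± 0.15 in CD38high and 10.46 ± 0.57 in CD38low cells (log2 expression, SD, n = 4 each), which follows the sort. Rows for the other sorting antigens, Itgam, Ly6g and the Ly6c genes, could not be located by name, so the labelled cell type could not be checked on them.

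ADAM proteins are membrane-anchored proteins with a metalloprotease and a disintegrin domain. They cut other membrane proteins near the cell surface and so release ectodomains such as adhesion molecules, cytokines and growth factors. ADAMTS proteins are secreted relatives that act on extracellular matrix, and ADAMTS-like proteins keep their ancillary domains but lack the protease domain. TIMPs are secreted inhibitors of matrix metalloproteases. In myeloid cells such proteases and inhibitors are known for adhesion, migration through tissue and release of soluble receptors.

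All 4 genes were higher in CD38high than in CD38low cells. Adam19 was 4.59-fold and Timp2 4.22-fold higher, while Adam8 was 2.44-fold and Adamtsl4 2.01-fold higher. The median of the 4 differences was 1.68 on the log2 scale, against 0.04 over all probesets. All 4 CD38high arrays lay above all 4 CD38low arrays for each gene, which held for 6.99% of all probesets. The 16 differences within a mouse or the pool were all positive, from 0.64 to 2.62 on the log2 scale, and 18.4% of all probesets were higher in CD38high cells in all 4 pairs. Since the contrast chose the genes, nothing is read from these counts. For scale, the unpaired limma fit called 3.74% of all probesets higher in CD38high cells at an adjusted p under 0.05, and 6.97% with pairs as a replicate block. Calls of the 4 genes themselves are not given, for the same reason. In sorted populations, more cells that express a gene and more RNA per cell cannot be told apart.

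**Figure D1:**
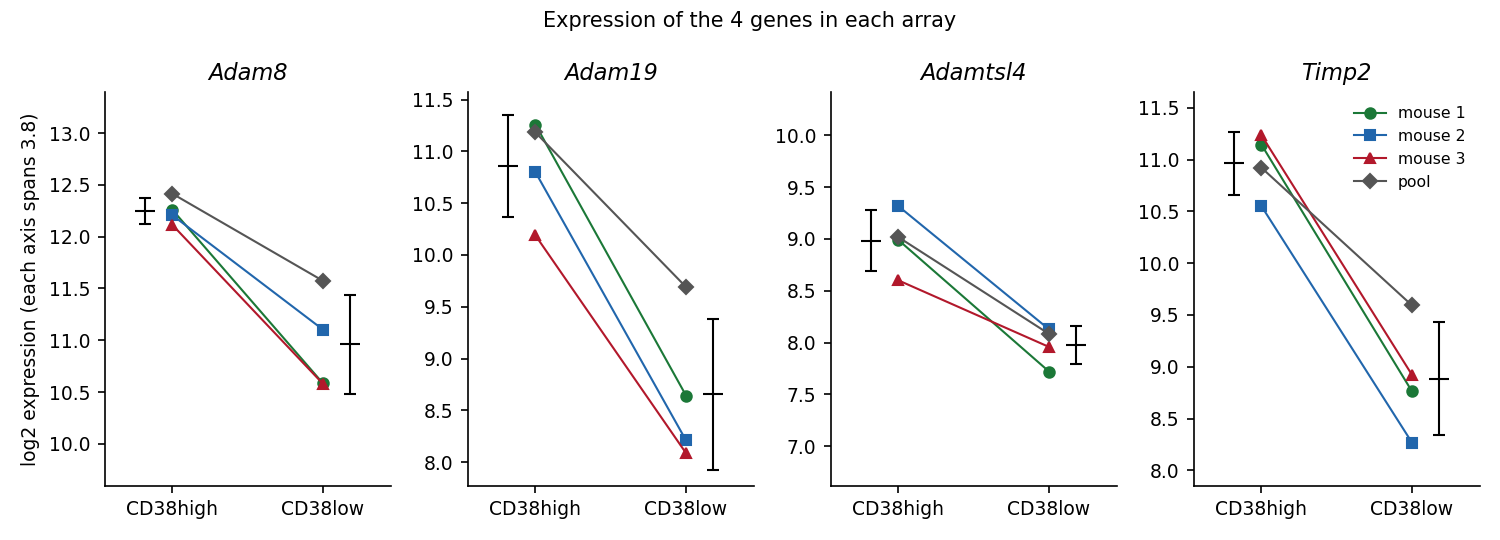
Log2 expression of Adam8, Adam19, Adamtsl4 and Timp2 in CD38high (left) and CD38low (right) cells, with a line joining the 2 fractions of each mouse or the pool and black bars giving the mean ± SD of 4 arrays. Each panel has its own range of levels but the same span. Each line is higher at its CD38high end, and the CD38low pool stands above the other CD38low arrays for Adam8, Adam19 and Timp2.

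Of the ADAM proteases, Adam8 (accession NM_007403, chromosome 7) encodes a protease of neutrophils and monocytes that sheds adhesion molecules. In CD38high cells its log2 expression was 12.26 in mouse 1, 12.21 in mouse 2, 12.11 in mouse 3 and 12.41 in the pool. In CD38low cells it was 10.58 in mouse 1, 11.10 in mouse 2, 10.58 in mouse 3 and 11.57 in the pool. The CD38high arrays were close to each other, whereas the CD38low arrays spread over 0.99, with the pool highest and mice 1 and 3 almost equal. The means were 12.25 ± 0.13 in CD38high and 10.96 ± 0.48 in CD38low cells (SD, n = 4 each), a log2 difference of 1.29. The lowest CD38high array, mouse 3, was 0.54 above the highest CD38low array, the pool.

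Adam19 (NM_009616, chromosome 11) encodes meltrin beta, which processes neuregulin in mouse. Its log2 expression in CD38high cells was 11.26 in mouse 1, 10.80 in mouse 2, 10.19 in mouse 3 and 11.18 in the pool. In CD38low cells it was 8.64 in mouse 1, 8.21 in mouse 2, 8.09 in mouse 3 and 9.69 in the pool. Mouse 3 was lowest in both fractions, and the pool was again the highest CD38low array. The means were 10.86 ± 0.49 in CD38high and 8.66 ± 0.73 in CD38low cells (SD, n = 4 each), a log2 difference of 2.20. The gap between the lowest CD38high and the highest CD38low array was 0.50, similar to that of Adam8 although the mean difference was larger.

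Adamtsl4 (NM_144899, chromosome 3) encodes a secreted protein without protease activity that binds fibrillin microfibrils. Its log2 expression in CD38high cells was 8.99 in mouse 1, 9.32 in mouse 2, 8.60 in mouse 3 and 9.02 in the pool. In CD38low cells it was 7.72 in mouse 1, 8.13 in mouse 2, 7.96 in mouse 3 and 8.08 in the pool. Mouse 2 was highest in both fractions, and the CD38low pool was not the highest CD38low array, as it was for both ADAM genes. The means were 8.98 ± 0.29 in CD38high and 7.97 ± 0.18 in CD38low cells (SD, n = 4 each), a log2 difference of 1.01. Of the 4 genes it was the one with the larger SD in CD38high cells. Of the 124 probesets listed as higher, 90 (72.6%) had the larger SD in CD38low cells, as the other 3 genes did. The gap between the groups was 0.47.

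Timp2 (NM_011594, chromosome 11) encodes an inhibitor of matrix metalloproteases that also takes part, with the membrane protease MMP14, in activating the precursor of MMP2. Its log2 expression in CD38high cells was 11.14 in mouse 1, 10.55 in mouse 2, 11.24 in mouse 3 and 10.92 in the pool. In CD38low cells it was 8.76 in mouse 1, 8.27 in mouse 2, 8.92 in mouse 3 and 9.59 in the pool. Mouse 2 was lowest and mouse 3 highest of the 3 mice in both fractions. The means were 10.96 ± 0.30 in CD38high and 8.89 ± 0.55 in CD38low cells (SD, n = 4 each), a log2 difference of 2.08. Its gap between the groups, 0.96, was the widest of the 4 genes.

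The pairs did not contribute equally. For Adam8 the difference within a pair was 1.68 in mouse 1, 1.10 in mouse 2, 1.53 in mouse 3 and 0.84 in the pool on the log2 scale. For Adam19 it was 2.62, 2.59, 2.10 and 1.49 in the same order. For Timp2 it was 2.38, 2.28 and 2.31 in the 3 mice, a mean of 2.33 ± 0.05 (SD, n = 3), against 1.33 in the pool. The 3 mice thus differed little in the size of the Timp2 difference, although their Timp2 levels differed by 0.68 in CD38high and 0.65 in CD38low cells. For Adamtsl4 the order was another one, with 1.27 in mouse 1, 1.19 in mouse 2, 0.64 in mouse 3 and 0.93 in the pool. The pool gave the smallest difference for 3 of the 4 genes. It did so for 78 of the 124 probesets that the authors' table lists as higher (62.9%) and for 135 of the 374 listed as lower (36.1%). The Cd38 transcript ran the other way, with 1.68, 1.64 and 2.05 in mice 1, 2 and 3 and its largest difference, 2.62, in the pool. Of the CD38low arrays, the pool had the lowest Cd38 level, 9.63, and the highest levels of Adam8, Adam19 and Timp2. The pool was also the highest CD38low array for 80 of the 124 probesets listed as higher (64.5%). Beyond Dixon's test for single arrays, given at the end, no test was made of the pool against the mice, since there is 1 pool.

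**Figure D2:**
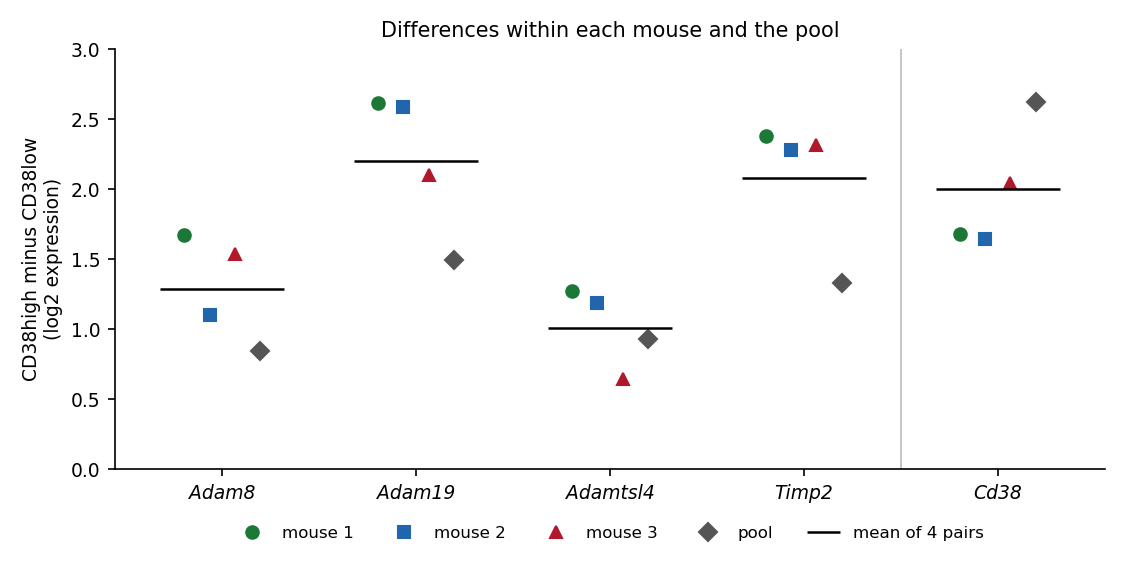
Difference in log2 expression, CD38high minus CD38low, within mouse 1, mouse 2, mouse 3 and the pool, for the 4 genes and for Cd38. Bars give the mean of the 4 pairs. The pool is lowest for Adam8 (0.84), Adam19 (1.49) and Timp2 (1.33) and highest for Cd38 (2.62).

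The genes fell at different places of the authors' list. By mean difference Adam19 ranked 8, Timp2 14, Adam8 61 and Adamtsl4 122 among the 124 probesets listed as higher. Among all 23332 probesets, named or not, their ranks were 12, 19, 126 and 290. Adamtsl4 thus stood at the edge of the list, which by the series design requires a 2-fold difference and a p under 0.001. The 2 listed probesets below Adamtsl4 were those of Ralgps1 and Sh2d3c, with folds of 2.01 and 2.0004. A mean difference of at least 1 towards CD38high cells was reached by 1.28% of all probesets. Outside the list, 174 probesets without a name here had such a difference, up to 2.66.

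**Figure D3:**
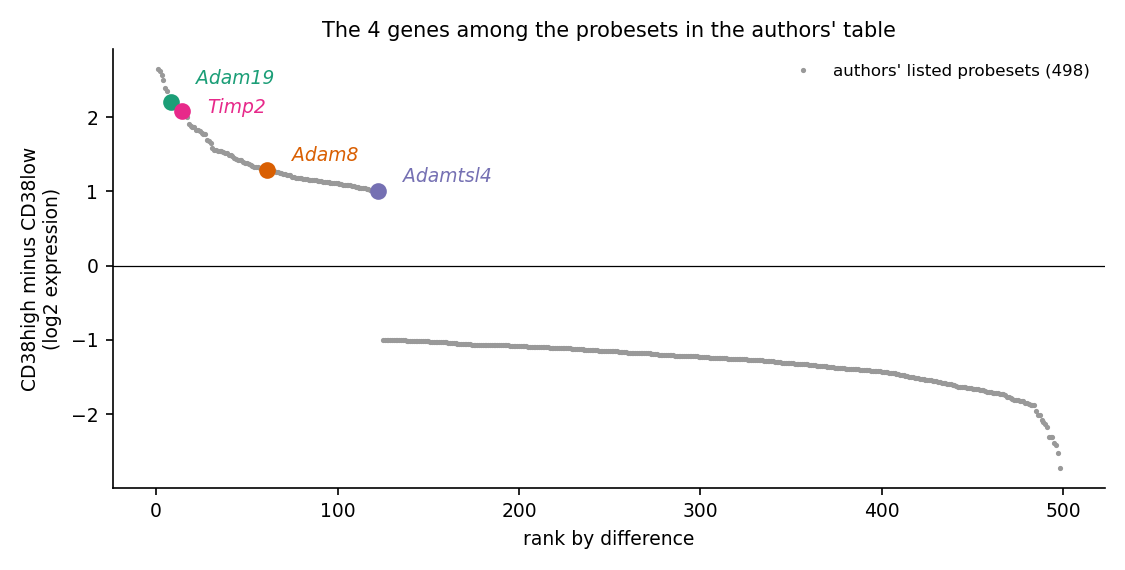
Difference in log2 expression, CD38high minus CD38low, of the probesets in the authors' table, ranked from the highest to the lowest, with the 4 genes in colour. Adam19 (2.20) and Timp2 (2.08) lie near the top and Adamtsl4 (1.01) at the lower edge of the 124 higher probesets.

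Few other genes of the same families could be placed, since only the authors' table pairs probesets with genes, and it names 2.07% of all probesets. Of 27 ADAM family genes the table named Adam8 and Adam19. Of 26 ADAMTS and ADAMTS-like genes it named Adamtsl4, and of 9 inhibitors of metalloproteases Timp2. Of 23 matrix metalloproteases, the enzymes that TIMP2 inhibits, it named 0. A family member without a name here is not shown to be unchanged. From a list of 26 genes drawn up around substrates, partners and ligands of the 4 proteins, the table named Selp, P-selectin, an adhesion receptor of platelets and endothelium. Whether any of the 4 proteins acts on P-selectin was not tested. Selp had log2 values of 8.38 to 8.75 in CD38high and 7.05 to 7.65 in CD38low cells. Of 30 other genes of proteases, their inhibitors and granule proteins of myeloid cells it named 5, of which 1 was higher and 4 were lower. Among all named probesets of the table, 121 were higher and 363 lower. Stfa3, a stefin that inhibits cysteine proteases, averaged 9.94 ± 0.15 in CD38high and 7.30 ± 0.59 in CD38low cells (SD, n = 4 each). The lower ones were the primary granule genes of neutrophil precursors. Ctsg, the serine protease cathepsin G, averaged 10.56 ± 0.29 in CD38high and 12.95 ± 0.15 in CD38low cells, and Prtn3, the serine protease proteinase 3, averaged 11.18 ± 0.15 in CD38high and 13.28 ± 0.11 in CD38low cells (SD, n = 4 each). Elane, neutrophil elastase, averaged 11.89 ± 0.38 in CD38high and 13.56 ± 0.08 in CD38low cells (SD, n = 4 each). Mpo, a peroxidase of the same granules, averaged 11.47 ± 0.11 in CD38high and 13.18 ± 0.15 in CD38low cells. These genes too come from a list chosen on this contrast, so the opposite directions are a description of that list.

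Markers of cell types and states could be read only where the authors' table lists them as changed. That each named marker differed was thus fixed by that choice, and the values only describe the list. The marker lists were also drawn up with earlier results of these data known. How many markers of a list were named is therefore not evidence for a cell type or state. The 6 named of 17 mature neutrophil markers, Stfa3, Il1rn, Fpr1, Slfn1, Hdc and Clec4e, had a summed level (log2 of the summed signal) of 14.71 to 14.94 in CD38high and 13.48 to 13.89 in CD38low cells. The other 11, among them Ly6g, Ltf, Camp and Ngp, had no name here and could not be assessed. All 5 granulocyte precursor markers were named, and their summed level was 13.23 to 13.70 in CD38high and 15.38 to 15.51 in CD38low cells. The 4 named of 6 proliferation markers, Cdc6, Mcm2, Mcm3 and Mcm6, stood at 10.17 to 10.61 in CD38high and 12.22 to 12.48 in CD38low cells. The B cell gene Cd79a, 1 of 7 markers, was at 7.99 to 9.75 in CD38high and 6.45 to 7.33 in CD38low cells, and Ccr7, 1 of 8 T cell markers, at 7.58 to 8.08 in CD38high and 6.30 to 6.95 in CD38low cells. Nkg7, 1 of 6 NK cell markers, was at 8.86 to 10.29 in CD38high and 11.61 to 12.50 in CD38low cells, and Mgl2, 1 of 9 monocyte and macrophage markers, at 5.66 to 6.34 in CD38high and 8.22 to 8.89 in CD38low cells. Selp is also 1 of 6 platelet markers. No gene was named from the lists for dendritic cells (9 genes), erythroid cells (6) or stromal and endothelial cells (8), and array levels have no true zero by which to call a marker absent. The part of these cell types in the differences of Adam8, Adam19, Adamtsl4 and Timp2 was not tested.

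The array-by-array profile of each gene was set against the other named probesets of the authors' table by the root mean square distance, in log2 units over the 8 arrays, between profiles centred on their own means. The nearest to Timp2 was the chitinase-like gene Chil5 (Bclp2 in the files) at 0.158, followed by Cd55, which limits complement activation, at 0.206 and Trpm2, a calcium-permeable channel opened by ADP-ribose, at 0.212. The nearest to Adam19 were Trim30b (listed as A530023O14Rik) at 0.286, Trpm2 at 0.303 and Pde7b, a cyclic AMP phosphodiesterase, at 0.333. The nearest to Adam8 were Sesn2, a stress-induced sestrin, at 0.140, Lins1 (listed as Lins) at 0.156 and Kdm5b, a histone demethylase, at 0.165. The nearest to Adamtsl4 were Rdh12, a retinol dehydrogenase, at 0.162, Ralgps1 at 0.164 and the transcription factor Zfhx3 at 0.179. The median distance to the named higher probesets was 0.528 for Timp2, 0.645 for Adam19, 0.323 for Adam8 and 0.364 for Adamtsl4. Among the 4 genes themselves the distances ran from 0.312 between Adam8 and Adamtsl4 and 0.466 between Adam19 and Timp2 to 0.782 between Adam19 and Adamtsl4. Much of a distance is the size of the difference between fractions, and the 8 arrays share mice and sorts. With the group means taken out, Chil5 and Cd55 were still among the 3 nearest to Timp2, Sesn2 and Kdm5b among those of Adam8, Trim30b among those of Adam19 and Rdh12 among those of Adamtsl4. Trpm2 was then no longer among those of Timp2 or of Adam19. Without mouse 2, 0 of the 3 genes nearest to Adam8 and 0 of those nearest to Adamtsl4 were kept.

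**Figure D4:**
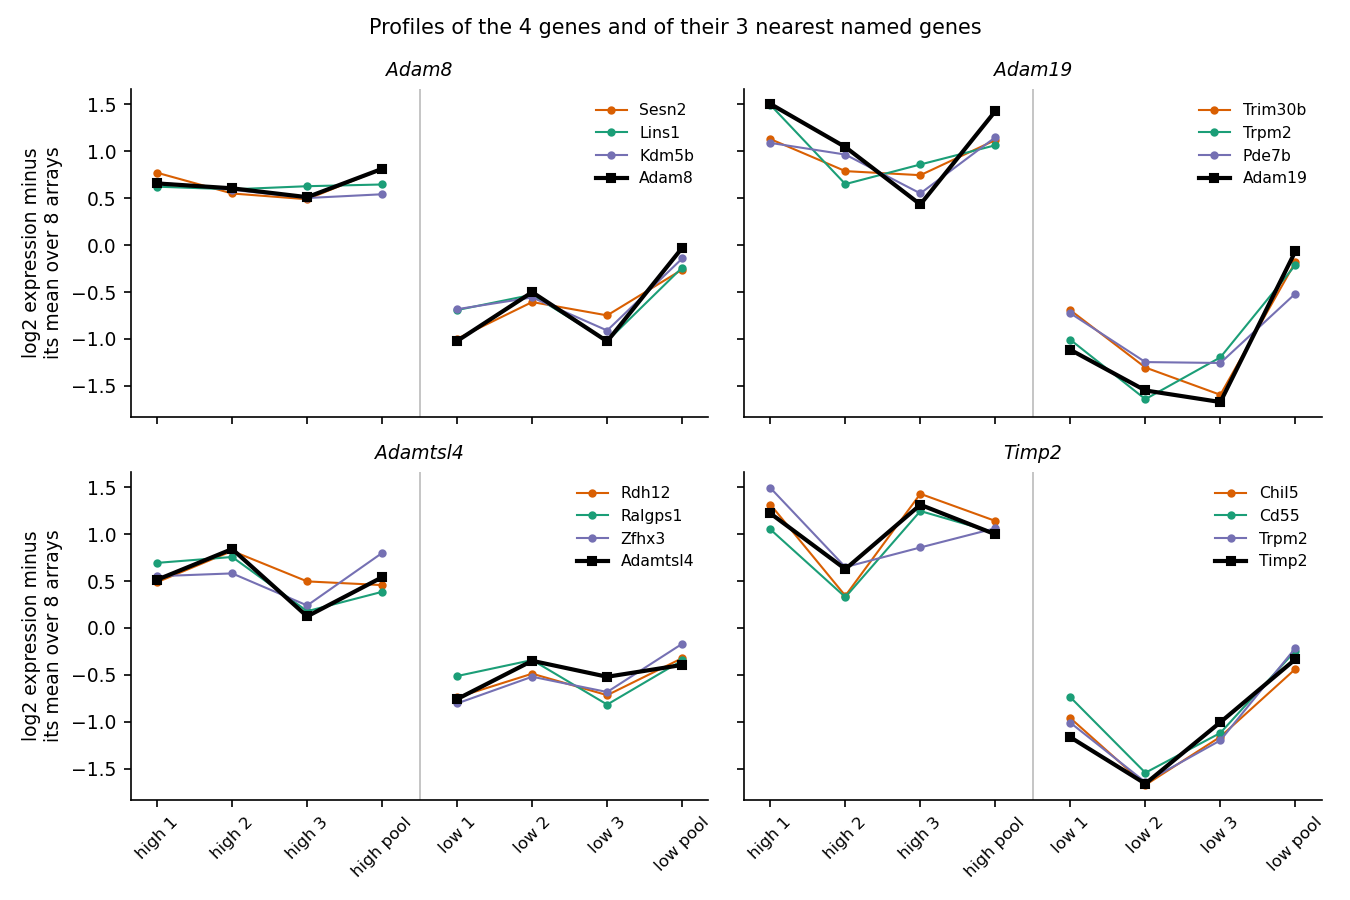
Log2 expression minus the gene's own mean over the 8 arrays, for each of the 4 genes (black) and its 3 nearest named genes (coloured), with the 4 CD38high arrays left of the grey line and the 4 CD38low arrays right of it. Chil5 follows Timp2 at a distance of 0.158, and Trim30b follows Adam19 at 0.286.

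The start regions of the genes are shown because the 4 transcripts differed in the same direction. The windows are RefSeq's, on GRCm38.p6, and run from 250 bases before to 50 bases after an annotated start, 5′ to 3′ on the gene's strand. All 4 genes matched by symbol. Adam19 has 3 annotated starts, and the window with the most CpG dinucleotides is shown. Capitals mark matches to the motifs searched.
Adam8, chr7:139992513-139992812, minus strand: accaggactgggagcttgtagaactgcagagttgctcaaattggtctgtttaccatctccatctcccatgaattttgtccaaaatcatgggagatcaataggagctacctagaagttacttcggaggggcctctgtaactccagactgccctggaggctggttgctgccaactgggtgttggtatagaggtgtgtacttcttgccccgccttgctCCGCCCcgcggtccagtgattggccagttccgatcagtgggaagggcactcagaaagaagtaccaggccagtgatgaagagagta
Adam19, chr11:46055734-46056033, plus strand: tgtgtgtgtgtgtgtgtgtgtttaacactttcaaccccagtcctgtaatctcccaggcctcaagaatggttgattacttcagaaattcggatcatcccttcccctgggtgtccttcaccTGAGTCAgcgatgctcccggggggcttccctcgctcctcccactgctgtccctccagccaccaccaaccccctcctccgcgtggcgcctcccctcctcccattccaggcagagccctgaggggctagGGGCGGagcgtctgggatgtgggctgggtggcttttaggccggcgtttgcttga
Adamtsl4, chr3:95687868-95688167, minus strand: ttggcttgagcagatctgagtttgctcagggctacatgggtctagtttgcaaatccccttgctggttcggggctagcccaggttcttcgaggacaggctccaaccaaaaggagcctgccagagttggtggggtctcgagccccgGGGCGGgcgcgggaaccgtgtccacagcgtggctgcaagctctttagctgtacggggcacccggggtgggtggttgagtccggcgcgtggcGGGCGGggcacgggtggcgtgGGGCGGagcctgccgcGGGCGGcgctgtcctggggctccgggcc
Timp2, chr11:118355362-118355661, minus strand: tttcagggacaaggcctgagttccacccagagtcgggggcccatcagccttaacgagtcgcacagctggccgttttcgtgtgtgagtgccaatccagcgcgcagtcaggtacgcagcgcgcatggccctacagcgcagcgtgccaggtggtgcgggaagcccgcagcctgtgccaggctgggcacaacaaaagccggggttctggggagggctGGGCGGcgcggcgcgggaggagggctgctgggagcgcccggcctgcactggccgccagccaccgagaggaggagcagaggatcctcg

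Motifs were searched on both strands. The AP-1 motif was taken as TGANTCA. The core of ETS sites was taken as GGAAGT and the core of C/EBP sites as GCAAT. The GC box was taken as GGGCGG and the TATA box as TATAAA. The GC box was found 35 bases before the start of Adam8, on the opposite strand, 37 bases before that of Timp2 and 4 bases before that of Adam19. Adamtsl4 held it 4 times, at 106 and 15 bases before the start and 7 and 23 bases into the transcript. Of all 32851 windows, 35.7% hold a GC box. The Adam19 window also held the palindrome TGANTCA, 131 bases before the start, a match found in 7.81% of all windows. ETS, C/EBP and TATA letters, found in 23.8%, 26.4% and 13.6% of all windows, were not in the 4 printed ones. Of the other Adam19 windows, 1 held an ETS core and neither held a GC box. The windows of Timp2 and Adamtsl4 held 25 and 24 CpG dinucleotides, counts reached by 18.4% and 20.0% of all windows, against 11 in that of Adam19 and 6 in that of Adam8, where the median of all windows is 7. A match is a match of letters and not evidence of a binding site.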

How the data were processed

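Per the labels' protocols, RNA of the sorted splenocytes was amplified with T7 RNA polymerase, and biotinylated cDNA was put on Affymetrix GeneChips. The authors deposited log2 expression values for 23332 probesets and a table of 498 probesets they list as changed. Per the submitters' processing notes, Affymetrix Power Tools, RMA, PLIER and the build mm9 were used. Which of RMA and PLIER gave these values is not given in the sources used here. No further normalization was applied.

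Each row of the authors' table matched 1 probeset in all 8 values (5 decimals), which named 484 probesets. Symbols were updated through a GRCm38.p6 annotation. Groups came from the sample titles. Differences are CD38high minus CD38low means of log2 values, and folds are 2 to that power. The series design names an unpaired test, so all 23332 probesets were fitted without a block, with lmFit and eBayes of limma 3.58.1 (R 4.3.3, two-sided, Benjamini-Hochberg, threshold 0.05), which was tested on simulated data. Across probesets, the 2 arrays of each pair deviated together from their group means, with r of 0.345 to 0.675. For unpaired arrays of opposite fractions r was -0.577 to 0.0998. Deviations from the mean of 4 arrays cancel out within a fraction, so positive values in pairs force negative ones elsewhere. The unpaired range is thus not an independent baseline. The replicate block, which rests on the shared animals, was run as well. Named besides the 4 genes were Cd38, the members of fixed lists that the authors' table names, and the 3 nearest profiles of each gene. Genes, lists and tests were chosen with earlier results of these data known. Scan dates were not used here, so batches could not be examined. Python 3.11.15, numpy 2.4.6, pandas 2.3.3 and matplotlib 3.10.9 served for the rest.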

Additional observations from a re-analysis of the deposited data

How the results depend on the processing

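Under all 16 alternatives run for each gene (quantile or median scaling, no dimmest probesets, the replicate block, each pair or array left out), the difference of each of the 4 genes stayed positive and moved by less than 1 SD. It ranged from 1.16 to 1.49 for Adam8, from 2.01 to 2.54 for Adam19, from 0.90 to 1.14 for Adamtsl4 and from 1.87 to 2.33 for Timp2. With the pairs as a replicate block, or without the 25% dimmest probesets, the differences are the same by construction. Leaving out an array or a pair could not change the sign, since all CD38high arrays lay above all CD38low arrays for each gene. With 4 arrays per group it could not move a difference by more than the larger group SD either. Only quantile and median scaling could thus have given another outcome, and the ranges above describe the rest. The number of probesets called was 2479, of which 873 were higher, and with the replicate block it was 3929, of which 1626 were higher. The methods' t-test gave 1598 after Benjamini-Hochberg, 545 of them higher, and at the p and fold of the series design, without its permutations, it gave 351, of which 78 were higher. Quantile scaling, median scaling or leaving out the 25% dimmest probesets moved neither count by over 1.5 times. Leaving out arrays or pairs gave 540 to 2436 called and 113 to 953 higher. The total fell by over 1.5 times without the pair of mouse 1 (540), that of mouse 3 (1334) or the pool (1125), without the CD38high array of mouse 1 (1188) or the pool (1460) and without the CD38low array of mouse 1 (1591), and the higher count also without the CD38low array of mouse 3 (551). Fewer arrays also lower the power. The nearest profiles depended more on single mice, with 0 to 3 of 3 kept when a pair was left out.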

Other observations

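Adamtsl4 has Ecm1, a secreted matrix protein gene, as its direct protein-coding neighbour on chromosome 3 in the GRCm38.p6 annotation, on the same strand. Ecm1 stood next to Adamtsl4 in the authors' list, at a log2 difference of 1.01. Its log2 expression in CD38high cells was 8.78, 8.95, 8.54 and 8.73 in mouse 1, mouse 2, mouse 3 and the pool, against 7.85, 7.36, 7.71 and 8.04 in CD38low cells. Mouse 2 was highest and mouse 3 lowest in CD38high cells for both genes. In CD38low cells mouse 2 was the lowest array for Ecm1 and the highest for Adamtsl4. The pair was chosen after its values were seen. Of the 118 listed higher genes placed in the annotation, 12 had another listed higher gene as a direct neighbour, each gene of such a pair being counted. No share was computed for other genes, so the count does not say whether such neighbours are common. Between Timp2 and the nearest listed gene on one side, Tk1, a thymidine kinase of the cell cycle that was lower by a log2 difference of -1.51, lay 9 protein-coding genes.

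Trpm2 was the 1 gene among the 3 nearest of more than 1 of the 4 genes. With the group means taken out, it was among the 3 nearest of neither Adam19 nor Timp2. It stayed among those of Adam19 whichever pair was left out, but among those of Timp2 only without mouse 3. The Trpm2 differences were 2.50, 2.29 and 2.05 in mice 1, 2 and 3 and 1.27 in the pool. Its level in the CD38low pool, 8.81, was its highest in CD38low cells, as for Adam19 and Timp2. The pool was the highest CD38low array for 80 of the 124 probesets listed as higher, these among them.

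By Dixon's test, 0 of the 10 groups of 4 arrays examined for the 4 genes and Cd38 held an array that the test set apart. With 4 arrays in a group the test has little power, and the genes were listed on these same values. No conclusion on single arrays, the CD38low pool among them, is therefore drawn from it.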
